A study of Mus musculus with 8 samples.

Results

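Zbtb7a occupied 7203 places in mouse kidney cortex where neither of the nucleosome remodelling subunits Mta2 and Mbd3 had a called peak. These places came from 3 peak lists of chromatin immunoprecipitation with sequencing, 1 list per factor. Peaks on chromosomes 1 to 19 and X that shared at least 1 bp were merged into 164813 regions, and a region was kept if it held a Zbtb7a peak and no Mta2 or Mbd3 peak. The kept regions made up 4.37% of all regions and 6.16% of the 116927 regions with a Zbtb7a peak. Each held exactly 1 Zbtb7a peak, and together they covered 1593 kb.

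The labels name 8 libraries in 4 groups of 2: Mta2, Mbd3, Zbtb7a and Input chromatin. All groups share the genotype Mta2flx/flx, that is Mta2 alleles flanked by recombination sites, and the labels name no Cre driver. All mice were 2 months old, and cortex was fixed with 2 mM disuccinimidyl glutarate and then 1% formaldehyde. One pair of identifiers recurs in the titles of all 4 groups, so the groups appear to share 2 mice. Both replicates of a group appear in 1 joint list, so no value per mouse, no SD and no test over animals can be given.

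Zbtb7a, also called LRF, is a transcription factor with zinc fingers that read DNA and a BTB domain that joins 2 molecules and recruits corepressors. It is best known for silencing fetal globin in red cells and for steering lymphoid cells towards the B lineage. The nucleosome remodelling and deacetylase (NuRD) complex, to which Mta2 and Mbd3 belong, removes acetyl groups from histones and moves nucleosomes, and Zbtb7a is one of the factors reported to recruit it. Kidney cortex holds glomeruli with podocytes, proximal and distal tubules, vessels and resident immune cells, and a peak from this mixed tissue cannot be assigned to one of them.

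In promoters, the Zbtb7a-only regions of highest enrichment lay close to the listed starts of 8 protein-coding genes. Their sequences are examples picked by fold and not typical sites. Each line gives the 120 bases upstream of the start, 5′ to 3′ on the strand of the gene, from the RefSeq promoter table for GRCm38.p6. Capitals mark GACCC or its reverse complement GGGTC, core letters reported for the zinc fingers of Zbtb7a.
Rps6ka1: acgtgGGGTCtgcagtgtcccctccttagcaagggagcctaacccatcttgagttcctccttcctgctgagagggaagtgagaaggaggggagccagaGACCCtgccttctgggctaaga
C1qb: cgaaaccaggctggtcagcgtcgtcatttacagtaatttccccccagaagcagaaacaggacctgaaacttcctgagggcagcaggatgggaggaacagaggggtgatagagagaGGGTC
Akt2: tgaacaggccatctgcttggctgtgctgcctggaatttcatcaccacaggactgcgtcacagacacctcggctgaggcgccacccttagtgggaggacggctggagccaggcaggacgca
Tmem54: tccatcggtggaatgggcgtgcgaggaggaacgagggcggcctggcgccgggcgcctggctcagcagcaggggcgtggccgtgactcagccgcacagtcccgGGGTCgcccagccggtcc
Gprasp2: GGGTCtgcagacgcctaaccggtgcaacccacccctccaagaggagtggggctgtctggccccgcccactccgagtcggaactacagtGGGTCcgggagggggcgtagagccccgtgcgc
2900026A02Rik: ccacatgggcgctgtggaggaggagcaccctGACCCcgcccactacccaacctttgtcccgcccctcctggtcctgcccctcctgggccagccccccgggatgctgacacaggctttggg
Cntnap5b: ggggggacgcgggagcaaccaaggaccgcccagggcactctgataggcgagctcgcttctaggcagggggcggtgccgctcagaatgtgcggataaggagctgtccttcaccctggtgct
BC035044: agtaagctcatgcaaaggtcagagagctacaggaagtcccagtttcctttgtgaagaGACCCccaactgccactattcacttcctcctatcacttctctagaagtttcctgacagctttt

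Of the 8 stretches, 6 hold the capitals and those of Akt2 and Cntnap5b do not. These letters are common, found in 54.0% of three-factor promoters and 44.1% of all promoters over windows of 300 bp. Their share in stretches of 120 bases of other promoters was not counted. Rps6ka1 encodes a kinase downstream of ERK, and its region, chr4:133874615-133874898, had its summit 23 bp upstream of the start with 52 fragments. C1qb encodes a chain of the complement recognition molecule C1q, and its region, chr4:136886070-136886558, had its summit 16 bp upstream with 49 fragments. Akt2 encodes a kinase of insulin signalling, and its region, chr7:27605621-27605923, had its summit 12 bp upstream with 62 fragments. These 3 regions therefore sat directly on a start, with Zbtb7a folds of 5.89, 5.56 and 5.40.

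The summit at Tmem54 was 10 bp upstream of the printed start (fold 4.78) and that at Gprasp2, a sorting protein for membrane receptors, 21 bp upstream (fold 4.67). Those at 2900026A02Rik, Cntnap5b, a neurexin family gene, and BC035044 were 28, 21 and 71 bp upstream, with folds of 4.56, 4.34 and 4.23. The nearest Mta2 or Mbd3 peak was 6398 bp away at C1qb, 807 bp at Gprasp2 and 139558 bp at Cntnap5b. The 8 promoters thus ranged from sites beside a NuRD region to sites far from any. The start of Rps6ka1 and that of Akt2 lie inside the annotated span of the gene, away from its ends.

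Enrichment in these regions was low and rested on few fragments. The deposited fold of a peak is the fragments at its summit over an expected background, each with 1 added, and fold and p together gave back both numbers. A Zbtb7a-only region had a median fold of 2.78, with the middle 50% from 2.45 to 3.22. Its summit had a median of 26 fragments over a median background of 7.99. For regions with all 3 factors the median was 58 fragments and the median fold 5.89.

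A count of 26 has a 95% Poisson interval of 17.0 to 38.1, which takes in the lowest count of any called Zbtb7a peak, 18. Under 30 fragments lay 70.0% of Zbtb7a-only regions and 12.9% of the regions with all 3 factors. Most were therefore within counting error of the calling limit. The limit for an Mta2 peak was 18 fragments and that for a Mbd3 peak 19, so a region without such a peak was below a limit and not shown to be unbound. Fold, fragments and q chose these regions and are given as description only.

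The share of Zbtb7a regions without a NuRD peak fell steeply as summits gained fragments. It was 29.3% under 25 fragments, 17.2% from 25 to 29 and 7.75% from 30 to 39. From 40 to 59 fragments it was 1.73%, and with 100 or more it was 0.115%, or 36 of 31433 regions. Of the 7203 regions, 154 had a fold over 5 and 627 a −log10 q of at least 10.

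**Figure D1:**
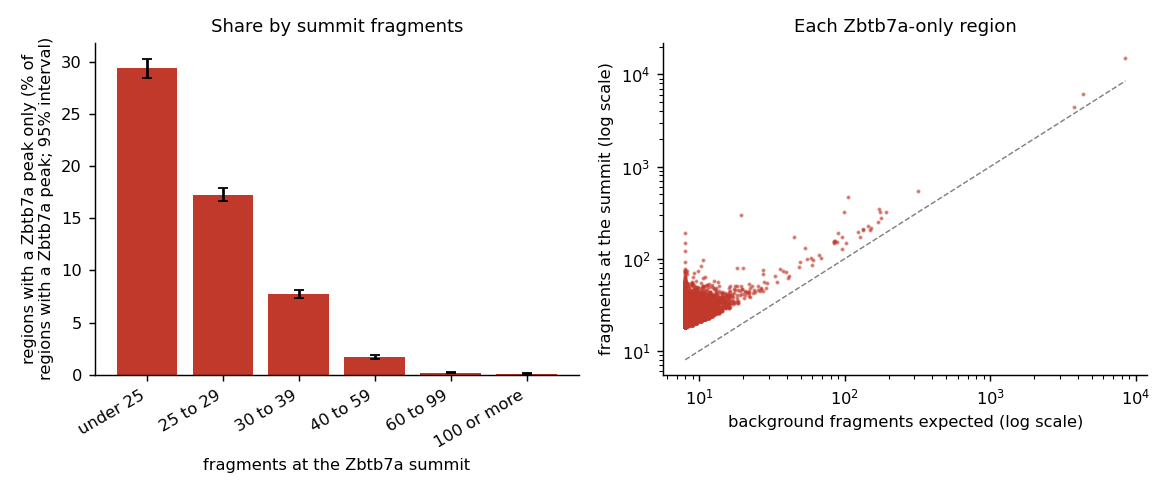
Left, share of regions with a Zbtb7a peak that had no Mta2 or Mbd3 peak (percent, bars from 0, exact 95% intervals) by fragments at the Zbtb7a summit. Right, summit fragments against expected background for each of the 7203 regions, both axes logarithmic, with a dashed line where they are equal. The share falls from 29.3% to 0.115%, and most points lie at the lowest background, with a sparse arm along high backgrounds.

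Widths were small too, at a median of 194 bp against 638 bp for regions with all 3 factors. At the edge of the rule, the first 5 regions in order of gap each had a NuRD peak touching them, with a gap of 0 bp. Their Zbtb7a folds were 2.17 to 3.40, and the total number of touching regions was not counted. Just outside it, among regions made of 2 peaks, the 5 smallest overlaps were 2 to 6 bp, with Zbtb7a folds of 1.91 to 3.45. These examples on either side of the boundary thus had overlapping folds.

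Of the 10 regions of highest fold, 7 lay outside protein-coding genes. The first, chr6:69516384-69516549, had 188 fragments over a background of 7.99 (fold 21.0) and lay inside the immunoglobulin kappa light chain locus, 7254 bp from the nearest listed V segment. The second, chr8:89755030-89755190, had 149 fragments (fold 16.7), and Tox3 was its nearest protein-coding gene. The third, chr7:38805689-38805853, had 298 fragments (fold 14.6) inside the long noncoding RNA gene 1700010N08Rik. These 3 were 161 to 166 bp wide, below the median of 194 bp.

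The region inside Dffb, chr4:153968526-153968913, had 93 fragments and a fold of 10.5. Dffb encodes the nuclease that cuts DNA during apoptosis. Inside Lemd2, a gene for an inner nuclear membrane protein, a region had 97 fragments and a fold of 8.48, and inside Speg, a muscle kinase gene, another had 74 fragments and a fold of 8.18. The region in the noncoding gene Gm12092 had a fold of 8.45. The other 3 had folds of 8.23 to 13.6, and Rfxap, Btrc and Hs3st3b1 were their nearest protein-coding genes. Those in Dffb, Lemd2 and Speg were the 3 of the 10 inside a protein-coding gene.

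Ranking by −log10 q brought up another kind of region. The first, chr12:3109903-3110071, had 15149 fragments over a background of 8486, a fold of 1.79. A region at chr9:3028542-3028859 had 6114 over 4346 (fold 1.41), and one inside Il31ra, an interleukin receptor gene, had 468 over 105 (fold 4.42). Such high backgrounds were rare, since 387 regions (5.37%) had a background of at least 1.5 times the lowest and 18 one above 100. The other 7 of the 10 were 6 of those listed above by fold and chr9:3258793-3258940, with 325 fragments over 99.4.

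Although defined by the absence of a NuRD peak, these regions lay among NuRD regions. The gap to the nearest Mta2 or Mbd3 peak had a median of 1808 bp, and it was at most 500 bp for 22.1%, 1 kb for 36.7% and 5 kb for 73.2% of regions. A further region of any kind lay within 1 kb of 39.6% (95% interval 38.4 to 40.7) of Zbtb7a-only regions. The corresponding share was 40.7% for regions with all 3 factors, 35.8% for Mbd3-only and 33.2% for Mta2-only regions (32.6 to 33.8). Intervals for shares are exact (Clopper-Pearson) and cover counting error only. They take regions as independent, so they are too narrow where neighbouring regions share a locus.

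The nearest neighbour was another Zbtb7a-only region for 7.80% of them. For regions with all 3 factors, a Zbtb7a-only region was the nearest in 4.38%. The share was 6.56% for regions with Zbtb7a and Mbd3 and 5.24% for those with Zbtb7a and Mta2. By chromosome, Zbtb7a-only regions made up 5.17% of the regions with Zbtb7a on chromosome 13 and 7.19% on chromosome 17, the lowest and highest values.

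The next question was where in genes the regions lay, a property that the rule did not use. Of the 7203 summits, 531 lay within 1 kb of either end of a protein-coding gene, which is 7.37% (6.78 to 8.0). Inside a gene away from its ends lay 57.1% and outside genes 35.5%. Regions with all 3 factors had 14.1% (13.9 to 14.4) at gene ends, and Mta2-only and Mbd3-only regions 4.76% (4.49 to 5.04) and 3.70% (3.27 to 4.17). Regions where Zbtb7a met Mta2 without Mbd3 had 6.57%, and those where it met Mbd3 without Mta2 6.03%. Zbtb7a-only regions thus lay between three-factor regions and regions with 1 NuRD subunit alone.

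The order against three-factor regions turned at low folds when regions of like Zbtb7a fold were compared. Under a fold of 2.5, 7.75% (6.64 to 8.98) of Zbtb7a-only summits and 5.82% (4.95 to 6.79) of three-factor summits were at gene ends, intervals that overlap slightly. From 2.5 to 3 the shares were 7.77% (6.72 to 8.93) and 5.11% (4.60 to 5.65), and from 3 to 3.5 they were 6.90% (5.73 to 8.23) and 4.87% (4.46 to 5.30). In those 2 bands the intervals did not overlap. Regions with Zbtb7a and Mta2 had 6.49% and 6.07% there, also above three-factor regions. Those with Zbtb7a and Mbd3 had 5.01%, just below them, and 5.79%, above them. Under a fold of 2.5 these 2 kinds had 5.49% and 3.93%, both below three-factor regions. All of these intervals overlap the three-factor ones. From 3.5 to 4 the Zbtb7a-only and three-factor shares were 6.81% (4.91 to 9.16) and 5.75% (5.25 to 6.27), and from 4 to 5 they were 6.91% (4.57 to 9.97) and 6.53% (6.12 to 6.96), with overlapping intervals. Over a fold of 5 the shares were 4.55% (1.85 to 9.14) of 154 regions and 20.03% (19.7 to 20.4) of 59614.

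**Figure D2:**
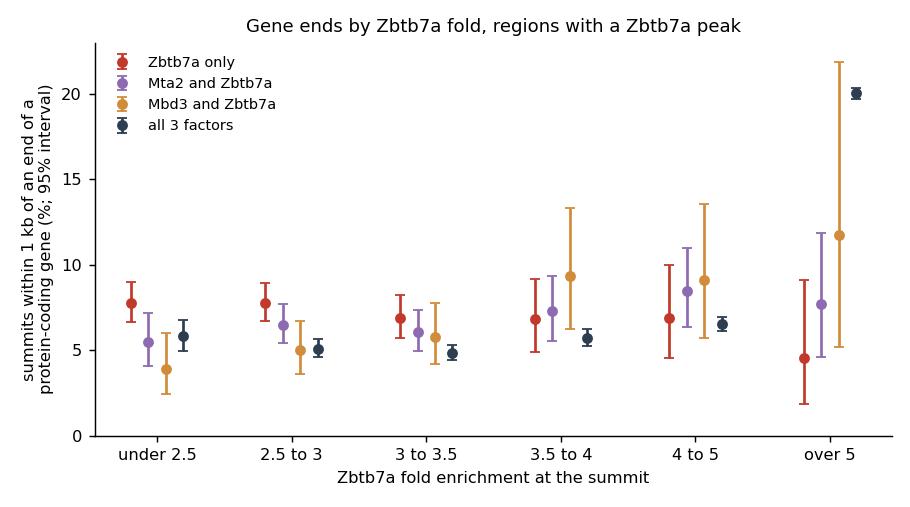
Share of Zbtb7a summits within 1 kb of an end of a protein-coding gene (percent, exact 95% intervals) by Zbtb7a fold, for 4 kinds of region with a Zbtb7a peak. Zbtb7a-only regions lie above three-factor regions up to a fold of 3.5, within error of them from 3.5 to 5 and far below them over a fold of 5. The last band has no upper limit, so folds in it are not matched.

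The end concerned was more often the 3′ end. Where the promoter table gives the strand of the nearest gene, 182 of 427 Zbtb7a-only summits at an end were at the 5′ end, which is 42.6% (37.9 to 47.5). For three-factor regions 83.5% (82.8 to 84.2) were at the 5′ end. Below a fold of 3.5 these shares were 43.6% (38.4 to 48.9) and 56.5% (53.0 to 60.1), so the difference was smaller but the intervals stayed apart. Mta2-only regions had 52.8% (49.4 to 56.1) at the 5′ end and Mbd3-only regions 43.2% (36.5 to 50.01). Zbtb7a regions with Mta2 alone had 155 of 310 (interval 44.3% to 55.7%) and those with Mbd3 alone 46.2% (36.9 to 55.6), both overlapping the Zbtb7a-only interval.

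Listed starts of protein-coding and noncoding genes gave a small local rise. In the 250 bp upstream of a start lay 1.41% (1.15 to 1.72) of Zbtb7a-only summits, or 0.566% per 100 bp, against 0.150% per 100 bp between 2000 and 5000 bp upstream. Three-factor regions had 2.56% and 0.138% per 100 bp in the same bins. The rise at starts was therefore present in both and several times higher in three-factor regions, without matching for fold. Regions with Zbtb7a and Mta2 had 0.596% and those with Zbtb7a and Mbd3 0.471% per 100 bp in the 250 bp upstream. The smaller rise is thus not particular to Zbtb7a-only regions. The Zbtb7a-only shares are of the 7001 regions on chromosomes for which the table lists starts, which leaves out chromosome 18.

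**Figure D3:**
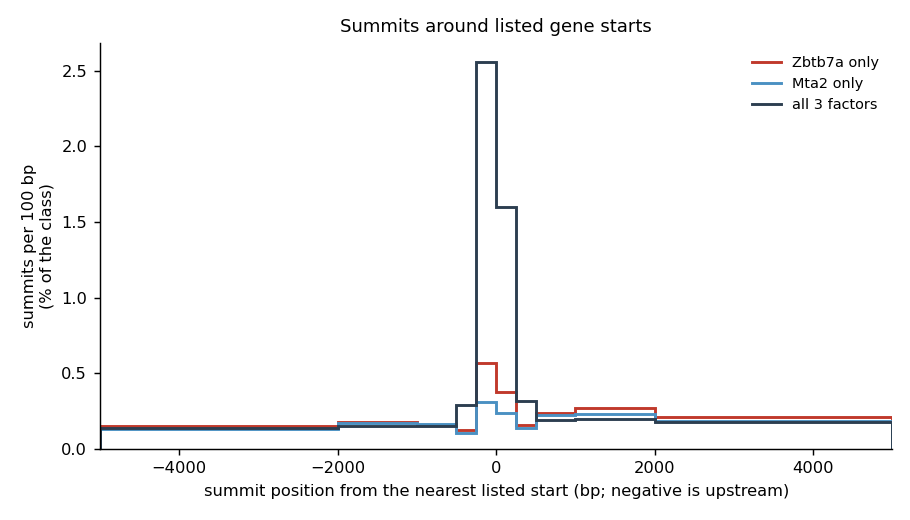
Summits per 100 bp (percent of each class) by signed distance in bp from the nearest listed gene start, negative values upstream, for Zbtb7a-only, Mta2-only and three-factor regions. In the 250 bp upstream, Zbtb7a-only regions reach 0.566% and three-factor regions 2.56%.

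A Zbtb7a-only summit lay inside 128 of 32619 promoter windows (0.392%), which run from 250 bp upstream to 50 bp downstream of a start. The 128 windows belonged to 123 genes, 84 of them protein-coding, and to 118 regions, and the following shares count each region once. These promoters had a median of 6 CpG dinucleotides in 300 bp, with the middle 50% from 3 to 11.75. Promoters with a three-factor summit had a median of 21, and promoters without any peak a median of 3. Median GC content was 56.0%, 62.0% and 46.3% in the same order.

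The letters GACCC, on either strand, occurred in 61.9% (52.5 to 70.6) of the Zbtb7a-only promoters, 54.0% (52.9 to 55.1) of the three-factor promoters and 44.1% of all promoters in the table. The longer GGGGTC, whose matches all hold GGGTC, occurred in 32.2% (23.9 to 41.4), 19.9% (19.0 to 20.8) and 15.1%. Part of this moved with GC content. Among promoters with 50% to 65% GC, GGGGTC was in 26.2% (17.0 to 37.3) of 80 Zbtb7a-only promoters, 17.3% (16.3 to 18.5) of three-factor promoters and 17.4% of all. In that band the interval took in the three-factor share. GACCC in the same band was in 57.5% (45.9 to 68.5), 52.5% and 50.7%. Over all GC contents, promoters with Zbtb7a and Mta2 but not Mbd3 had GACCC in 56.1% (46.5 to 65.4) and GGGGTC in 24.6% (17.0 to 33.5). Both intervals overlap those of the Zbtb7a-only promoters, so these shares are not particular to them.

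Letters of other factors differed in both directions. CCGGAAG, read by the ETS family of activators, was in 1.69% (0.206 to 5.99) of the Zbtb7a-only promoters, 18.03% (17.2 to 18.9) of three-factor promoters and 8.92% of all. The GC box GGGCGG, read by Sp factors, was in 39.8% (30.9 to 49.3), 66.9% (65.9 to 67.9) and 35.9%. Promoters with Zbtb7a and Mta2 but not Mbd3 resembled the Zbtb7a-only ones, at 0.877% for CCGGAAG and 43.0% for GGGCGG, so low shares of these letters are not particular to Zbtb7a-only promoters. Within the GC band the shares in Zbtb7a-only and three-factor promoters were 2.5% and 20.7% for CCGGAAG and 33.8% and 59.9% for GGGCGG.

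A further 6 motifs were searched on both strands, namely CCAAT, the TATA box TATAAA, the E-box CACGTG, a run written CCCCCC, the AP-1 letters TGACTCA and the Hnf4 letters CAAAGT. Their shares in Zbtb7a-only promoters were 28.8%, 8.47%, 2.54%, 22.9%, 9.32% and 19.5%. In three-factor promoters they were 36.8%, 6.0%, 10.6%, 21.5%, 3.59% and 11.8%, and in all promoters 37.6%, 13.7%, 7.20%, 18.01%, 5.22% and 14.4%. TGACTCA, at 9.32% (4.75 to 16.1) against 3.59% (3.20 to 4.0), and CAAAGT, at 19.5% (12.8 to 27.8) against 11.8% (11.1 to 12.5), were more frequent in Zbtb7a-only than in three-factor promoters, and CACGTG, at 2.54% (0.527 to 7.25) against 10.6% (9.92 to 11.2), less. Within the GC band TGACTCA was in 5.0% and 4.15%, CAAAGT in 15.0% and 14.2%, and CACGTG in 3.75% and 10.9%, with intervals that overlap in each case. Over all GC contents, promoters with Zbtb7a and Mta2 but not Mbd3 had TGACTCA in 7.89%, CAAAGT in 14.0% and CACGTG in 5.26%. Mta2-only promoters had 8.61%, 21.1% and 7.18% in the same order. The intervals of both classes overlapped the Zbtb7a-only intervals, so these shares are not particular to Zbtb7a-only promoters. A match is a description of letters and not a binding site.

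By gene, 599 of 21627 protein-coding genes (2.77%) had a Zbtb7a-only summit within 1 kb of an end, against 65.6% with any Zbtb7a summit there. Of the 599, 434 also had a Mta2 or Mbd3 summit at an end. The other 165 genes (0.763%) had none at either end, and they traced to 148 regions. Inside the span, ends included, 3122 genes (14.4%) held at least 1 Zbtb7a-only summit. All later counts are read against these shares.

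The 15 genes with the highest Zbtb7a-only fold at an end ran from 7.34 to 4.67. Wdtc1, a gene for a ubiquitin ligase adaptor that limits fat storage, led with 65 fragments (fold 7.34) 696 bp from its 3′ end at chr4:133292958-133293482. It had no Mta2 or Mbd3 summit at an end but 9 of each inside its span. Aplp1, a relative of the amyloid precursor gene, had 51 fragments (fold 5.78) 525 bp from its 3′ end. Map3k6, a stress kinase gene, had 46 fragments (fold 5.23) 148 bp from the 5′ end of its span, but 2691 bp upstream of its listed start. Sema3g, a secreted semaphorin gene, had 45 (fold 5.12) 792 bp from its 3′ end.

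C1qb and Tmem54, described above, were also among the 15. At 3′ ends lay those of Anks1 (fold 5.12), Mthfd1, a folate enzyme gene (fold 4.89), Sp2, a gene of the Sp factor family (fold 4.89), and Slc27a2, a fatty acid transporter and acyl-CoA synthetase gene of the proximal tubule (fold 4.75). One region of fold 4.70 was at the 3′ ends of both Rpl10a, a ribosomal protein gene, and Tead3, a transcription factor gene of the Hippo pathway. Gprasp2 had its region at the 5′ end, and for Armc12 (fold 5.48) and Psg16 (fold 4.89) the table gives no strand. Among the 13 genes with a strand, 9 thus had the region at the 3′ end and 4 at the 5′ end.

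Long genes collected most regions inside their span. Tns1, a gene for a focal adhesion protein, held 14 over 214 kb, Trabd2b 13 over 208 kb, and Msi2, an RNA-binding protein gene, 12 over 379 kb. Atp11a, a phospholipid flippase gene, held 10 over 112 kb and Mast4, a kinase gene, 10 over 603 kb, a count that Zbtb7c shared; the tie for the last places was settled by alphabet. The same spans held many NuRD summits, with 73 of Mta2 in Tns1 and 95 in Msi2. In all 5, the Zbtb7a-only regions were a minority of the Zbtb7a summits, for example 14 of 99 in Tns1 and 10 of 24 in Atp11a.

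Lists of genes were counted next, with 19 lists and the shares of all genes, 2.77% at an end and 14.4% inside the span, as the reference. In bulk tissue a low signal cannot be split into few cells of a type and little binding per cell. As a check of the tissue label, any Zbtb7a summit lay at an end of 26 of 28 podocyte and 28 of 30 proximal tubule genes, against 65.6% of all genes. It lay at an end of 15 of 18 nephron progenitor, 10 of 16 neuron, 7 of 16 immune cell, 7 of 18 hepatocyte and 6 of 16 germ cell genes. The peaks measure binding and not expression, so this check is indirect and does not by itself mark the tissue.

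Podocyte genes had a Zbtb7a-only summit at an end in 4 of 28 and inside the span in 16 of 28. Nphs1 encodes nephrin, the adhesion protein of the slit diaphragm. Its region, chr7:30457772-30458003, had 35 fragments (fold 4.0) between Nphs1 and its neighbour Kirrel2, which encodes a nephrin-related adhesion protein. The summit was 349 bp upstream of the start of Kirrel2 and 343 bp outside the span of Nphs1, whose listed start lies 2194 bp away. A second Zbtb7a region, with its summit 1738 bp towards Nphs1, had a fold of 12.8 and 114 fragments and carried a Mta2 peak.

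Ptpro, a podocyte receptor phosphatase gene, had a region 95 bp inside its start with 29 fragments (fold 3.15), 110 bp from a NuRD peak. Vegfa, which encodes the growth factor that podocytes supply to glomerular vessels, had one 901 bp upstream with 26 fragments (fold 2.46). Lama5, a gene of the glomerular basement membrane laminin, had its region 805 bp from the 3′ end with 20 fragments (fold 2.33). These 3 genes had Mta2 and Mbd3 summits at an end as well. Of the 4 podocyte genes, only Nphs1 had neither within 1 kb of an end of its annotated span. Its listed start lies inside that span, however. A Mta2 summit lay between the Zbtb7a-only summit and that start, 1748 bp from the former, so Nphs1 is not shown to lack NuRD at its start.

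Proximal tubule genes had the summit at an end in 6 of 30 and inside the span in 20 of 30. All 6 regions were at 3′ ends. They belonged to the water channel gene Aqp1 (31 fragments, fold 3.36), the regulator gene Hnf4a (25, fold 2.25), the amino acid transporter subunit gene Slc3a1 (26, fold 2.84), Ggt1, a glutathione-cleaving enzyme gene (28, fold 3.06), the dicarboxylate transporter gene Slc13a3 (21, fold 2.45) and Slc27a2 (43, fold 4.75). Each of the 6 genes also carried Mta2 and Mbd3 summits at an end.

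In the thick ascending limb and distal convoluted tubule list, 2 of 17 genes had the summit at an end and 9 inside the span. Slc12a3, the thiazide-sensitive salt transporter gene, had a region 950 bp upstream of its start with 23 fragments (fold 2.35), and held 7 such regions in its span. In the collecting duct list it was 1 of 17, the transcription factor gene Tfcp2l1 (29 fragments, fold 2.94), with 2 of 17 inside the span. The shares inside the span were thus above 14.4% for the proximal and distal tubule lists and near it for the collecting duct list.

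Median gene spans differ between the lists, and long genes can hold more regions. They were 57.9 kb for podocyte, 23.7 kb for proximal tubule, 26.8 kb for distal tubule, 21.6 kb for collecting duct and 17.3 kb for all genes. Counts inside spans are therefore not adjusted for length. Neither are they adjusted for the density of peaks of any kind.

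Mesangial, stromal and smooth muscle genes had the summit at an end in 3 of 16 and inside the span in 1 of 16. Ren1 encodes renin, the enzyme that starts the angiotensin cascade, and its region, chr1:133361133-133361359, had 22 fragments (fold 2.56) 936 bp beyond its 3′ end. No Mta2 or Mbd3 summit lay at an end of Ren1. Des, the desmin gene, had 37 fragments (fold 4.23) 696 bp upstream of its start, and Myh11, a smooth muscle myosin gene, 24 (fold 2.78). Both of these also carried NuRD summits at an end.

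Endothelial genes had 1 of 16, Egfl7, which encodes a secreted vessel protein (23 fragments, fold 2.67), with 6 of 16 inside the span. Immune cell genes had 2 of 16, and both lacked Mta2 and Mbd3 at either end. Cd8a, a coreceptor gene of cytotoxic T cells, had its region, chr6:71372471-71372625, 898 bp upstream of the start with 23 fragments (fold 2.67). C1qa, of the C1q complement genes of macrophages, had 24 fragments (fold 2.78) 137 bp from an end. Counts of 22 to 24 are close to the calling limit of 18.

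The C1q genes lie side by side, and their Zbtb7a regions differed in NuRD. The region at the start of C1qb and that at C1qa had no NuRD peak. At C1qc a Zbtb7a peak with 39 fragments (fold 4.45) shared its region with a Mta2 peak of 26 fragments. C1qb and C1qc were named after their values were seen. The 3 neighbouring genes thus held 2 Zbtb7a-only regions and 1 shared with Mta2.

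**Figure D4:**
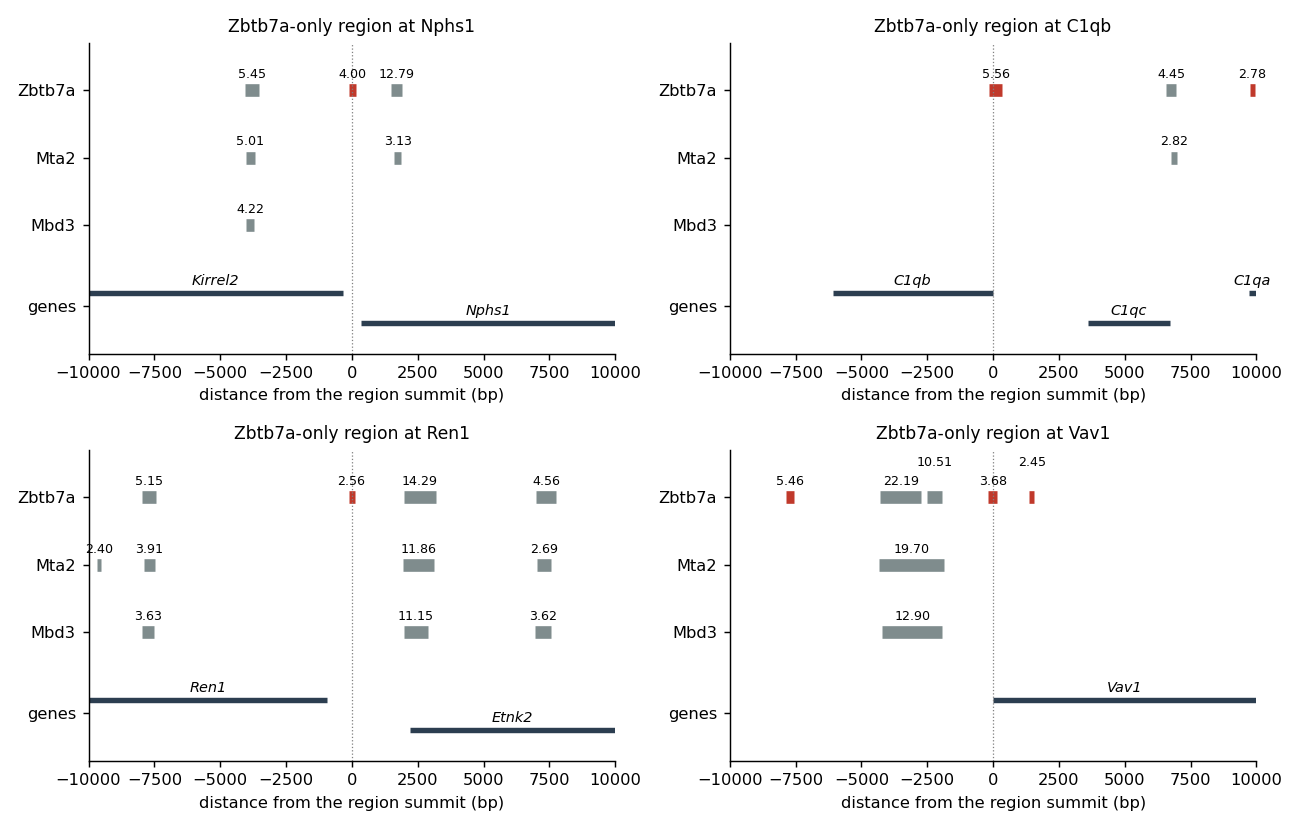
Peaks of Zbtb7a, Mta2 and Mbd3 within 10000 bp of the Zbtb7a-only region at Nphs1, C1qb, Ren1 and Vav1, by distance in bp from its summit; the number above a peak is its deposited fold within its own list, red marks Zbtb7a-only regions, grey marks peaks of other regions, and dark bars are gene spans. At Nphs1 and Ren1 shared regions flank the red one, and at Vav1 3 red regions lie around a three-factor region.

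Vav1, chosen once its values were known, encodes a signalling protein of blood cells and had 3 Zbtb7a-only regions within 10000 bp of its start. The first, chr17:57278925-57279284, had its summit 20 bp downstream of the start with 34 fragments (fold 3.68). The others, 7728 bp to one side and 1456 bp to the other of that summit, had 64 (fold 5.46) and 21 fragments (fold 2.45). Between the first and the farther one lay a three-factor region with a Zbtb7a fold of 22.2. Sites with and without NuRD peaks thus lay near each other at this gene.

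Genes of Zbtb7a itself and its partners had 3 of 12 at an end and 7 of 12 inside the span. At Zbtb7a the region lay 393 bp from the 3′ end with 22 fragments (fold 2.56), and its span held 4 such regions among 9 Zbtb7a summits. Zbtb17, whose product partners with Myc, had 28 fragments (fold 3.22) at the 3′ end. The related Zbtb7b and Zbtb7c had none at an end but 3 and 10 inside the span. Both Zbtb7a and Zbtb17 also carried NuRD summits at an end.

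The Notch list had 1 of 16, the DNA-binding effector gene Rbpj (36 fragments, fold 3.51). The other 10 lists had none at an end: NuRD subunits (0 of 15), nephron progenitor (0 of 18), hepatocyte (0 of 18), germ cell (0 of 16), neuron (0 of 16), globin (0 of 15), glycolysis (0 of 20), Zbtb7a targets of other tissues (0 of 15), TGF-beta and fibrosis (0 of 20) and ribosomal proteins (0 of 25). At a share of 2.77%, lists of this size would hold fewer than 1 gene on average, so a count of 0 says little. Inside the span, 7 of 20 TGF-beta genes, 6 of 18 nephron progenitor genes and 1 of 25 ribosomal protein genes held such a region.

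**Figure D5:**
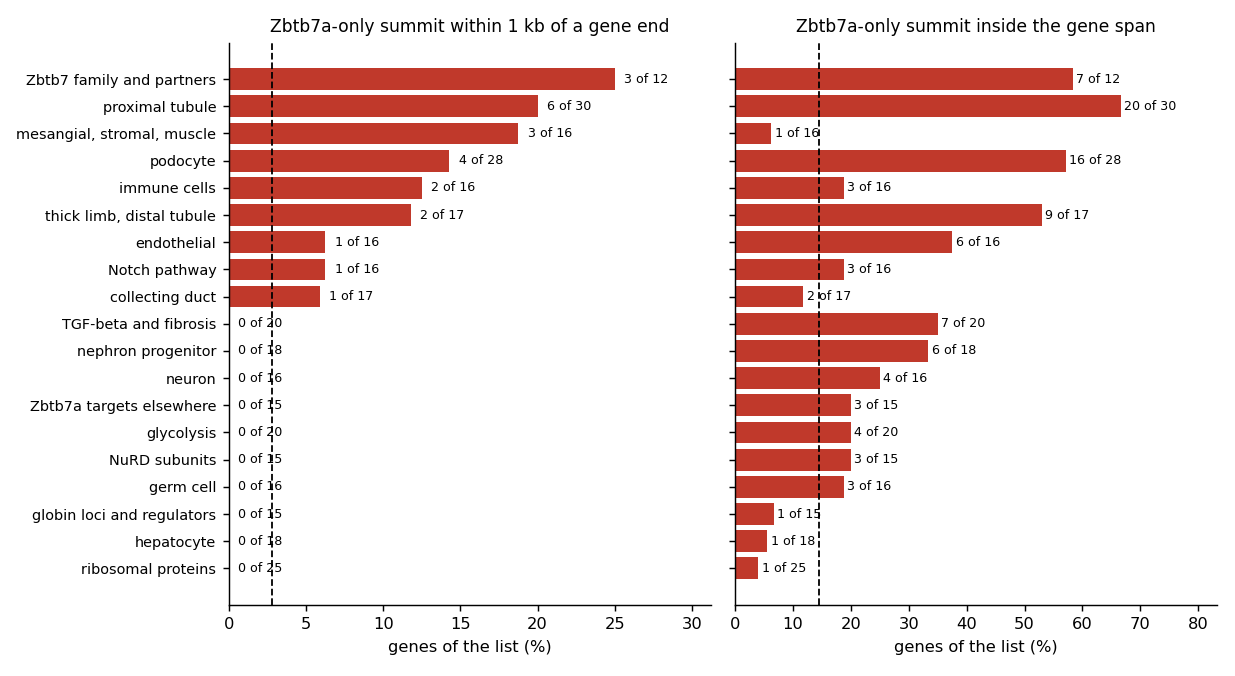
Genes of 19 lists (percent of the list, bars from 0) with a Zbtb7a-only summit within 1 kb of an end (left) or inside the span (right), with counts beside the bars and the share of all protein-coding genes as a dashed line. At ends, 9 lists lie above the dashed line, 3 of them through 1 gene each (collecting duct, endothelial, Notch), and 10 lists are at 0.

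Among gene families, 18 of 375 solute carrier genes (4.80%) had a Zbtb7a-only summit at an end, and 101 (26.9%) inside the span. Olfactory receptors had 1 of 1110 and vomeronasal receptors 0 of 355, whereas any Zbtb7a summit lay at an end of 12 and 3 of them. Zinc finger genes named Zfp had 7 of 397 (1.76%). All 21 gamma protocadherin genes counted as having a region at an end, but through a single region of 39 fragments (fold 3.36) at the 3′ end that they share, so a family count can rest on 1 region.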

How the data were processed

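Zbtb7a-only regions were taken from 3 peak lists (149855 Mta2, 134248 Mbd3 and 124616 Zbtb7a peaks on chromosomes 1 to 19 and X). Bowtie2, deepTools, MACS2 and bedtools with mm10 were used per the submitters' processing notes, and the sources used here give no versions, settings or way in which the 2 mice were combined. Each deposited line gives a fold, that is a ratio over background, −log10 p and q values and a whole-number score made from q. Summit fragments and background were solved from the deposited fold and −log10 p under a Poisson model, and all peaks fitted within a relative tolerance of 0.001. Input and library depth were not analysed here.

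RefSeq's GRCm38.p6 annotation, in mm10 coordinates, gave gene ends, and starts and strands from its promoter table (32619 windows). All 333 listed symbols matched. The strongest summit by fold placed a region, within 1 kb of an end as the main window. Named items were the 10 regions highest by fold and by −log10 q, the 15 genes with the highest fold at an end, the 5 with most regions inside, every listed gene with one at an end, and 8 promoters by fold. Some items that this rule named are not reported here. Members, lists and rules were chosen with earlier results of these data known. No test was run, since no value per mouse exists. Alternatives covered q limits, overlap, width, window and background. Scripts used python 3.11.15, numpy 2.4.6, pandas 2.3.3 and scipy 1.17.1, and were tested on simulated peaks.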

Additional observations from a re-analysis of the deposited data

Results flagged for a closer look

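On chromosome Y, which was left out of all comparisons, 6 regions held a Zbtb7a peak and no NuRD peak. They were 7.79% (2.91 to 16.2) of the 77 regions with a Zbtb7a peak there, an interval that takes in the 6.16% of the other chromosomes, and had folds of 1.98 to 2.78 with 19 to 84 fragments.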

How the results depend on the processing

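Restricting Zbtb7a peaks to a −log10 q of at least 5 left 3164 regions and 265 genes with one at an end, against 7203 and 599. With −log10 q of at least 10 in all lists there were 3182 regions, 8.30% of them at gene ends, and 300 genes. Lists of equal length gave 11439 regions. Requiring no NuRD peak within 1 kb left 4562 regions, 6.18% at ends, and 327 genes, and keeping only regions wider than 200 bp left 3288, 8.55% and 330. Windows of 0.5 kb gave 4.01% and 333 genes, and windows of 3 kb 18.2% and 1497. Listed starts in place of gene ends, an alternative added after the data were seen, gave 5.06%. The remaining 16 values, under a −log10 q of at least 2 for Zbtb7a peaks or 5 in all lists, 50% overlap, chromosome Y and low backgrounds among others, stayed within 1.5 times for counts or within the interval for shares. The number of regions thus depends on q limits and list lengths, while the share at gene ends stayed between 6.18% and 8.55% with the 1 kb window around both ends.

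No paired analysis was possible because each list combines both replicates of its group, although the titles appear to tie all groups to the same 2 mice. Low fragment counts limit the data, since most regions sit near the calling limit.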

Other observations

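Outside protein-coding genes, 8 Zbtb7a-only regions lay within 1 kb of an immunoglobulin V segment, and all 8 segments were of the kappa light chain locus, which B cells rearrange. The annotation lists 394 V segments, 102 of them of the kappa locus. They were 8 of the 10 Zbtb7a regions at any V segment, and 0.111% (0.0480 to 0.219) of Zbtb7a-only regions against 0.000989% (1 of 101152) of three-factor regions. Mbd3-only regions had 5, or 0.0726% (0.0236 to 0.169), an interval that overlaps the Zbtb7a-only one, and Mta2-only regions 2, or 0.00863%. The summits were 3 to 145 bp from an end of the segment, and 7 of the 8 segments were of the Igkv6 and Igkv8 families. The share of these families among all kappa segments was not counted, so no preference for them is shown. The highest were Igkv6-32 with 45 fragments (fold 5.12), Igkv8-26 with 35 (fold 4.0) and Igkv6-17 with 34 (fold 3.89). The nearest NuRD peak was 12912 to 131373 bp away. Segments of a family are alike in sequence, so how reads were placed among them is uncertain. This group was noticed after the data were seen.

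Of Zbtb7a-only regions, 29 (0.403%, 0.270 to 0.578) lay within 1 kb of a microRNA gene, against 0.255% (0.225 to 0.288) of three-factor regions, intervals that overlap. The highest was at Mir6909 (fold 5.18). Others, picked for their known tissues and not by fold, were Mir126a, Mir142b and Mir192. Mir126a, a microRNA of endothelium hosted by Egfl7, had 37 fragments (fold 4.13) 195 bp away. Mir142b, at a locus known from blood cells, had 24 (fold 2.78), and Mir192, abundant in kidney, 29 (fold 2.60). In these 3 regions a NuRD peak lay 650, 259 and 56 bp away. Among genes with a CD antigen symbol, a family added after the data were seen, 7 of 100 had a region at an end, and Cd72, Cd8a and Cd300lg had no NuRD summit there. Other families added in the same way had a region at an end in 2 of 37 (chemokine ligands), 1 of 12 (toll-like receptors), 0 of 41 (interleukin receptors) and 0 of 33 (C-type lectins). Among the genes with a region and no NuRD summit at an end, picked after their values were seen, were Tyrobp (30 fragments, fold 3.45), Gzmk (34, fold 3.89), Runx3 (21, fold 2.45), Pax5 (36 over a background of 13.3, fold 2.59) and Ccl3 (22, fold 2.56). The 165 such genes also include many of other kinds, such as Synpr, Camkv, Gabre and 10 gamma protocadherins. The share of immune cell genes among the 165 was not counted.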
